A study of Mus musculus with 20 samples.

Results

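The genes described here build and run motile cilia: the transcription factor gene Foxj1, and every row of the deposited counts table named as an axonemal dynein chain (Dnahc, Dnaic, Dnali1), radial spoke protein (Rsph), tektin (Tekt) or intraflagellar transport protein (Ift) with a mean of at least 5 counts over the 20 libraries. The rule was matched by 43 of 25965 rows. They were Foxj1, 16 rows of dynein heavy chains, 3 rows of other dynein chains (Dnaic1, Dnaic2 and Dnali1), 7 radial spoke rows, 4 tektin rows and 12 Ift rows. Names beginning with Dnaaf or Cfap, also in the rule, matched 0 rows. Dnahc12 was listed in 2 rows without an identifier, which were kept apart. Tekt3, at a mean of 1.55 counts, lay just outside the threshold, and Dnahc7c (5.7 counts) and Rsph6a (9.5 counts) lay just inside.

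Motile cilia beat because dynein arms on their doublet microtubules slide neighbouring doublets past each other, while radial spokes relay signals from the central pair. In the brain such cilia cover ependymal cells, which line the ventricles, and related cells of the choroid plexus. Foxj1 switches on the genes of the motile axoneme. Intraflagellar transport carries cargo along the axoneme of motile and primary cilia alike, and cortical neurons and astrocytes carry a primary cilium.

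Frontal cortex RNA was sequenced at 5 months of age in a mouse line whose Tardbp gene, which encodes the RNA-binding protein TDP-43, carries the knock-in change Q331K. There were 8 libraries from homozygotes (2 copies of the allele), 6 from heterozygotes (1 copy) and 6 from wild-type mice (0 copies). All were on the C57BL/6 background, no treatment is given, and no transgene or Cre driver is named. The labels number the samples within a genotype without naming animals or litters, so the tests weigh sample-to-sample spread, which may be partly technical.

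Library totals ran from 61282647 to 111440766 counts. Levels are given in CPM, counts scaled to the library total after TMM normalization. Tardbp averaged 245 ± 10.5 CPM (SD) in the 8 homozygotes, 230 ± 7.58 in the 6 heterozygotes and 218 ± 5.53 in the 6 wild-type mice. Of 10 cortical excitatory neuron markers, 10 were over 1 CPM in every library.

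Some libraries stood apart by markers of neighbouring tissue. A score of ependymal markers (the mean z score of Rarres2, Mia1, Tmem212, Ccdc153, Calml4, Dmkn, Cd24a and Vim) was over 1 in 4 libraries. It was 2.04 in homozygous replicate 1, 1.25 in homozygous replicate 2, 1.18 in homozygous replicate 4 and 1.14 in heterozygous replicate 2. The summed level of these 8 genes ran from 28.5 to 52.3 CPM in homozygotes, from 30.4 to 41.1 CPM in heterozygotes and from 28.7 to 36.1 CPM in wild type. Tmem212 was at 0 in homozygous replicate 8 and wild type replicate 4. A score of 7 olfactory bulb markers was over 1 in homozygous replicates 2, 5 and 8, at 1.38, 2.11 and 2.28, and a striatal score was 3.10 in heterozygous replicate 1. These genes take no part in the rule. For members whose 4 highest libraries were the 4 of high ependymal score, and for some others, log2 changes are given with and without those libraries. None of the libraries of high score was wild type, and fits without them rest on fewer homozygous libraries. For a member highest in them, a smaller estimate in homozygotes against wild type follows from leaving them out. Such a fit is a description and tests no cause. In bulk tissue, fewer or more ciliated cells and less or more RNA per cell cannot be told apart.

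**Figure D1:**
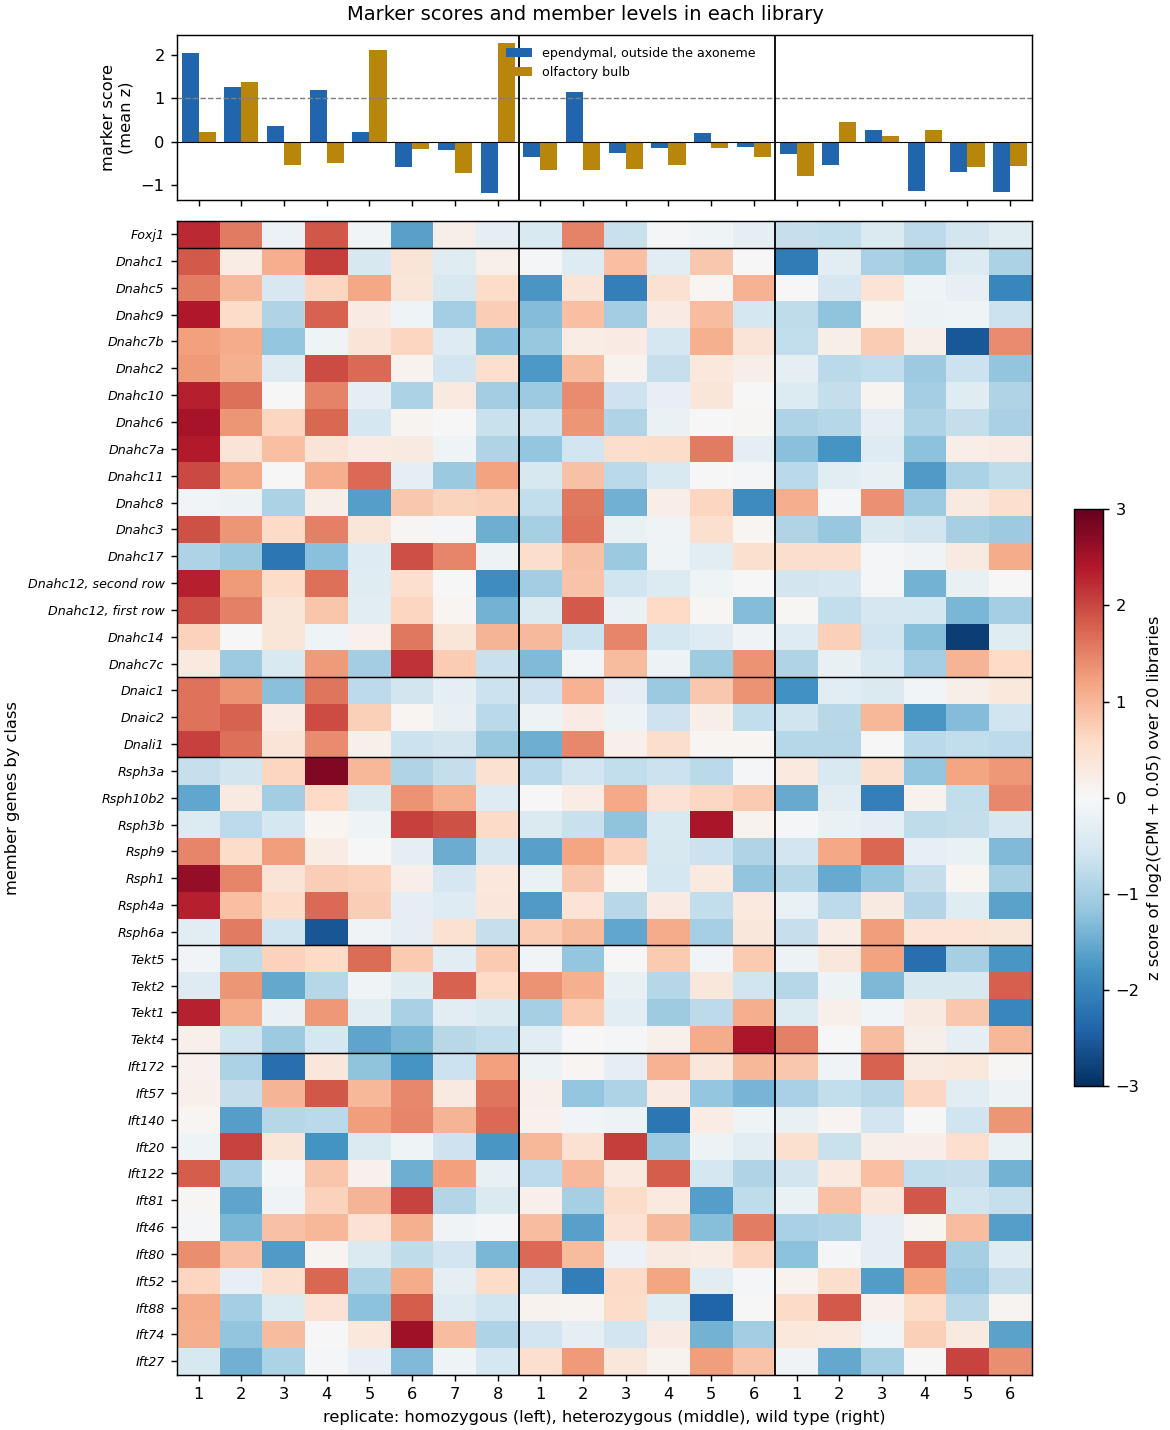
The upper panel plots the ependymal and olfactory bulb marker scores (mean z) of each library, with a dashed line at 1. The lower panel plots the z score of log2(CPM + 0.05) of each of the 43 members over 20 libraries, with classes split by lines. Homozygous replicates 1, 2 and 4 and heterozygous replicate 2 are red for Foxj1 and many dynein rows, and no such block runs through the Ift rows.

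Foxj1, which lies at chr11:116330704-116335399 on the minus strand (GRCm38), was high in 4 libraries and overlapped between genotypes. In homozygotes its lowest, median and highest levels were 2.75, 4.27 and 7.55 CPM, in heterozygotes 3.53, 3.99 and 6.20 CPM, and in wild type 3.43, 3.58 and 3.84 CPM. The 4 libraries of high ependymal score held 6.20 to 7.55 CPM and the other 16 libraries 2.75 to 4.42 CPM, and these ranges did not overlap. Homozygotes averaged 4.99 ± 1.70 CPM (SD, n = 8), heterozygotes 4.27 ± 0.972 (n = 6) and wild type 3.61 ± 0.168 (n = 6). The edgeR log2 change of homozygotes against wild type was 0.47 with a standard error of 0.18 and an adjusted p of 0.218. Leaving out the 4 libraries gave 0.09 (edgeR adjusted p = 0.678). Those 4 were its highest libraries and held homozygous replicates 1, 2 and 4 but no wild-type library. A smaller estimate therefore follows from leaving them out. Two-sided exact permutation tests of mean log2 CPM gave p = 0.0899 for homozygotes against wild type (adjusted p = 0.135), p = 0.0346 for heterozygotes against wild type (adjusted p = 0.104) and p = 0.453 for homozygotes against heterozygotes (adjusted p = 0.453), adjusted over the 3 pairs. The differences in mean log2 CPM were 0.40, 0.22 and 0.18 in that order of pairs.

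In homozygotes against wild type, 3 of the 42 members tested were raised and 0 were lowered at an adjusted p under 0.05, where edgeR raised 0.641%, lowered 0.923% and in all called 1.56% of the 16690 genes tested. The raised members were Rsph1, Dnahc1 and Dnahc11. By DESeq2, Tekt4 was lowered, and by limma voom 0 members were. An unadjusted p under 0.05 was found for 18 of 42 members and for 16.1% of all genes. Among those 18, Tekt4 and Ift172 had negative estimates. Estimates were positive for 26 of 30 motile cilium members tested, with a median log2 change of 0.27, and for 6 of 12 Ift members, with a median of 0.005. Over all genes tested, 50.6% were positive and the median was 0.001. The 2 genotypes overlapped for every one of the 42 members, against 0.264% of genes with all homozygous libraries higher and 0.515% with all lower.

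The motile cilium median was smaller without the libraries of high ependymal score. Leaving out the 4 libraries of high score gave 0.15, and leaving out those of either high score gave 0.17. With 3 surrogate variables as covariates it was 0.14. No member was called in these 3 fits, in which edgeR called 253, 52 and 102 genes in all (95, 21 and 56 raised, and 158, 31 and 46 lowered). Leaving out only the 3 libraries of high olfactory bulb score moved estimates both ways. Dnahc6 went from 1.09 to 1.29 and Dnahc2 from 0.40 to 0.35. Dnahc1 was still called there (0.33, edgeR adjusted p = 0.0387).

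**Figure D2:**
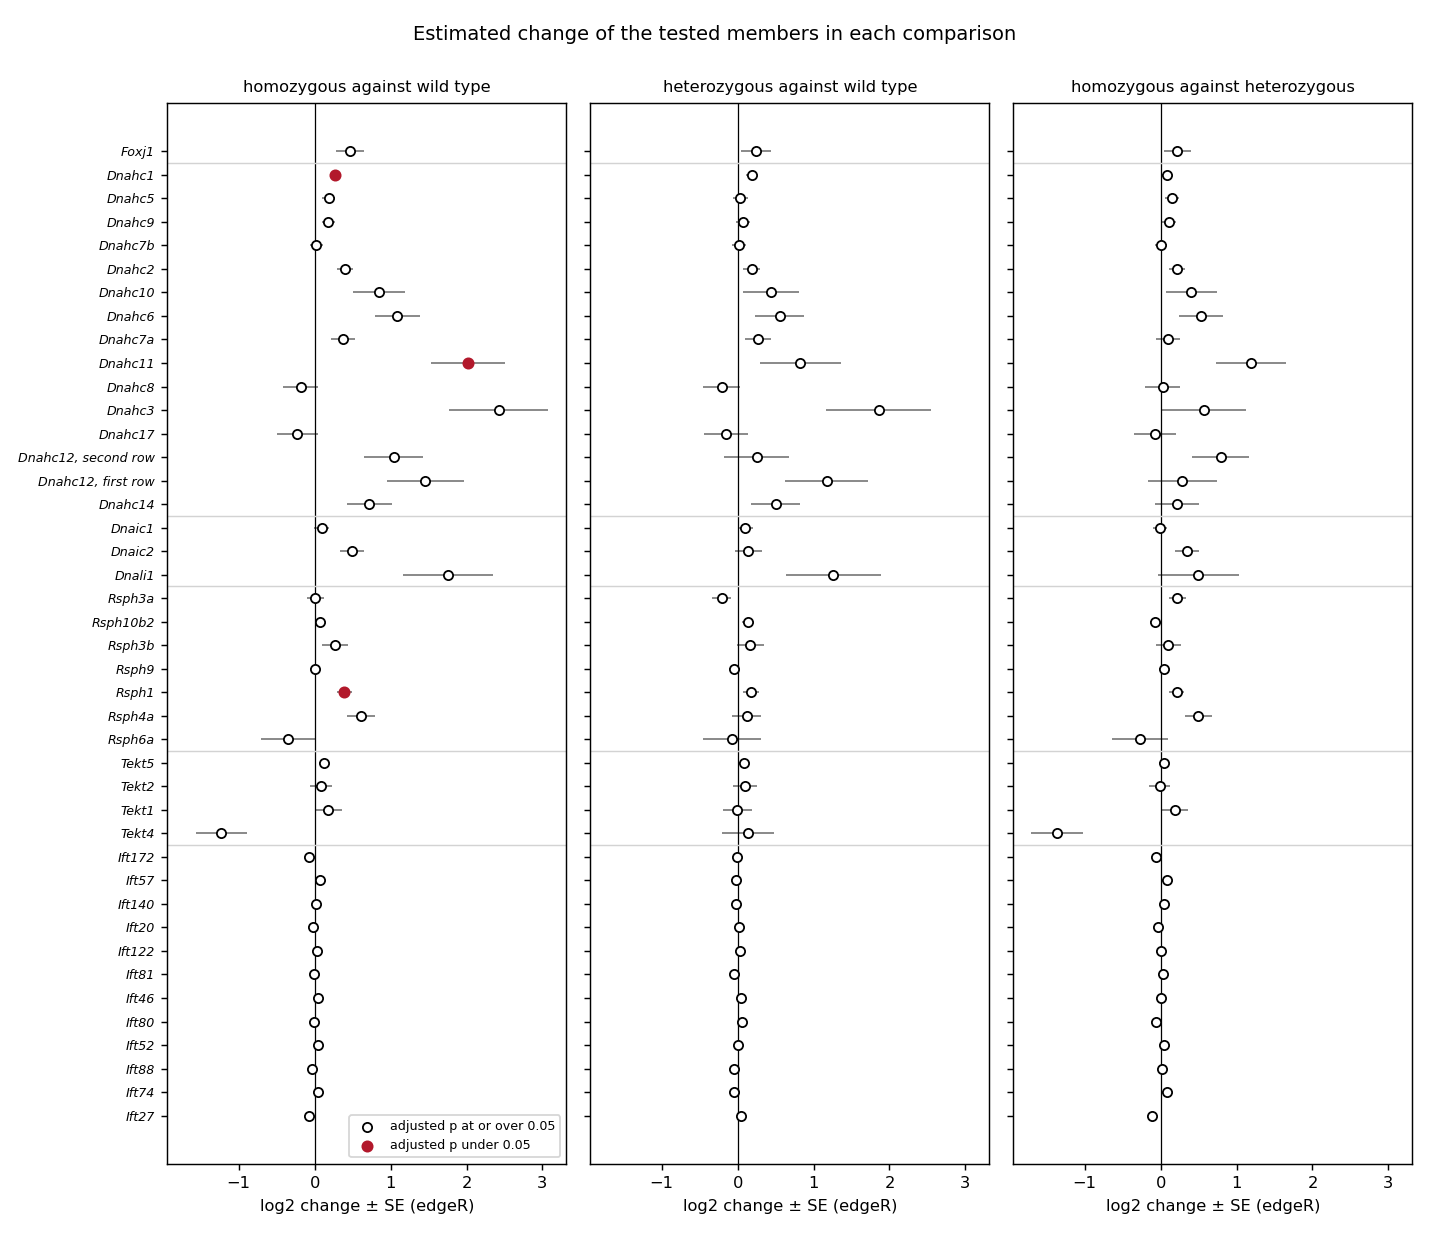
Log2 changes with standard errors (edgeR) of the 42 members tested in each comparison, ordered by class. Filled points (Dnahc1, Dnahc11 and Rsph1 in homozygotes against wild type) had an adjusted p under 0.05, and the Ift members lie close to 0 in all 3 comparisons.

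In heterozygotes against wild type, 0 of 42 members were called by edgeR, as were 0% of all genes, and DESeq2 and limma voom also called 0 members. An unadjusted p under 0.05 was found for 3 members, Dnahc3, Dnahc1 and the first Dnahc12 row, against 3.19% of all genes. Estimates were positive for 30 of 42 members, against 51.2% of genes, with a median log2 change of 0.14 over the motile cilium members and -0.004 over the Ift members.

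In homozygotes against heterozygotes, edgeR called 0 members, against 0.108% of all genes (0.03% raised and 0.0779% lowered), while limma voom called 0 and DESeq2 called Tekt4. An unadjusted p under 0.05 was found for 8 members and for 11% of all genes. Estimates were positive for 32 of 42 members, against 49.8% of genes, with medians of 0.17 over the motile cilium members and 0.01 over the Ift members. Both comparisons with wild type share its 6 libraries.

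The promoters of the called dynein genes are shown with those of Dnahc6 and Dnali1, whose 4 highest libraries were the 4 of high ependymal score, and of Ift57, the Ift member of smallest p in homozygotes against heterozygotes. RefSeq (GRCm38.p6) gave promoters for 35 members, from 250 bases before to 50 after the gene start. Foxj1, Dnahc3, Rsph1, Rsph4a, Rsph10b2, Ift80, Ift81 and Ift122 had no entry. Capitals mark GTTNCC on either strand, a form of an arm of the X-box that RFX factors bind. The Dnahc1 promoter is chr14:31323847-31324146 on the minus strand, that of Dnahc11 chr12:118198994-118199293 on the minus strand, and that of Dnahc6 chr6:73221582-73221881 on the minus strand. The Dnali1 promoter is chr4:125065608-125065907 on the minus strand and that of Ift57 chr16:49699044-49699343 on the plus strand.
Dnahc1 promoter: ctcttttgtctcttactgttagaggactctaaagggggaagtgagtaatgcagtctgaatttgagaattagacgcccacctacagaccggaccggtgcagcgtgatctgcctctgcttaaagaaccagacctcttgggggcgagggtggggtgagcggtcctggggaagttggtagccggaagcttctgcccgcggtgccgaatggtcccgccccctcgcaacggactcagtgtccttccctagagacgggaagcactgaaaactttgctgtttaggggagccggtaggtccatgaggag
Dnahc11 promoter: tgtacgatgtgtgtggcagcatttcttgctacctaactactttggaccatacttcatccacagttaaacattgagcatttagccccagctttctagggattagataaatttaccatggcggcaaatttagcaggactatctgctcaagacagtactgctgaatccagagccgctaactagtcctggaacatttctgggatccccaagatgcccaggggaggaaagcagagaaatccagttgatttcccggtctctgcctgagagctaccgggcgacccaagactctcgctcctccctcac
Dnahc6 promoter: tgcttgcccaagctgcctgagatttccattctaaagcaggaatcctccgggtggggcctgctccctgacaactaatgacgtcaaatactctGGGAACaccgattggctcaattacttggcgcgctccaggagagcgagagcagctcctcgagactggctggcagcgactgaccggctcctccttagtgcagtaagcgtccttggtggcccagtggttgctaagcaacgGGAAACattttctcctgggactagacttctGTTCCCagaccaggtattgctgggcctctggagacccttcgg
Dnali1 promoter: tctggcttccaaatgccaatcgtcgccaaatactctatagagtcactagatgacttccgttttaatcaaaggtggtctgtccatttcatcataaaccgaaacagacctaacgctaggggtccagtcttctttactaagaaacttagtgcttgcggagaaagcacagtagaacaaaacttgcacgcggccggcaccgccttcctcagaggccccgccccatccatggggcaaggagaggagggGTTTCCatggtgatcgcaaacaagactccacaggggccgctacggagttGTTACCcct
Ift57 promoter: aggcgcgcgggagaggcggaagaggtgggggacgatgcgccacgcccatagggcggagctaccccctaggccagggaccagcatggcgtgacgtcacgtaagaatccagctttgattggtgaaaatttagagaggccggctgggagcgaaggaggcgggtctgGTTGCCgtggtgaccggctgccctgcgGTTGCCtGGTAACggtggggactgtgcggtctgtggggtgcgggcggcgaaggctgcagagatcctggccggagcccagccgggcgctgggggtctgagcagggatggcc

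GTTNCC was found in 19 of 25 motile cilium genes with a promoter and in 9 of 9 Ift genes, against 45.3% of 32851 promoters of the same length. The letters were not in the windows of Dnahc1 and Dnahc11, and were there 3 times in those of Dnahc6 and Ift57. In Ift57 a pair of matches face each other with a base between them, as GTTNCCNGGNAAC, a pattern in 0.271% of all promoters and 0 of the 25 motile cilium genes. With 2 bases between the arms (GTTNCCNNGGNAAC, in 0.451% of promoters) or 3 (GTTNCCNNNGGNAAC, in 0.0609%), 0 members matched. Arms with other letters were not counted, such as the paired gttgctaagcaac in the Dnahc6 promoter. These counts therefore do not cover all X-box-like letters. The forkhead motifs TGTTTAC and TGTTTGT were in 3.65% and 6.61% of promoters, and the first was in that of Dnahc17. Each pattern was searched on both strands, GTTNCC lies within the longer X-box patterns, and a match is a description of these letters, not a bound site.

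The dynein heavy chains are the motors of the axoneme. Dnahc5, Dnahc9 and Dnahc11 form outer arms and Dnahc1, Dnahc2, Dnahc3, Dnahc6, Dnahc7a, Dnahc7b, Dnahc10 and Dnahc12 inner arms. Their summed level was 37.3 ± 6.26 CPM (SD) in the 8 homozygotes, 32.9 ± 3.87 in the 6 heterozygotes and 29.5 ± 1.19 in the 6 wild-type mice. It was highest, at 49.4 CPM, in homozygous replicate 1. Of the 15 rows tested, 2 were raised in homozygotes against wild type, and 13 had positive estimates, with a median log2 change of 0.40.

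Dnahc1 (chr14:31260375-31323896, minus strand), an inner arm chain, was highest per kilobase of exon among the heavy chains, at 0.654 CPM per kilobase over all libraries. Its lowest, median and highest levels were 8.02, 8.78 and 10.7 CPM in homozygotes, 8.11, 8.44 and 9.40 CPM in heterozygotes and 6.66, 7.60 and 8.17 CPM in wild type. Homozygous replicates 5 and 7, at 8.02 and 8.13 CPM, lay within the wild-type range, and homozygous replicates 4 and 1 were highest. The log2 change of homozygotes against wild type was 0.27 (SE 0.067, edgeR adjusted p = 0.0419). Leaving out the 4 libraries of high ependymal score gave 0.19 (edgeR adjusted p = 0.142), and the estimate lay between 0.17 and 0.33 over 32 alternatives, 18 of which kept the call. The call was also lost without any of wild type replicates 1, 3, 4, 5 and 6 or homozygous replicates 1, 3, 4 and 6. Gm35823 lies on the opposite strand.

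Dnahc11 (chr12:117877982-118199043, minus strand), an outer arm chain, had the largest change among the called members. In homozygotes its lowest, median and highest levels were 0.202, 1.24 and 2.46 CPM, in heterozygotes 0.266, 0.429 and 1.05 CPM, and in wild type 0.110, 0.268 and 0.433 CPM. The groups overlapped, and 5 homozygous libraries (replicates 1, 2, 4, 5 and 8) held 1.24 CPM or more while the other 3 held 0.527 CPM or less. Replicates 5 and 8, at 1.98 and 1.35 CPM, had ordinary Foxj1 (4.12 and 3.90 CPM) and the highest olfactory bulb scores. The log2 change of homozygotes against wild type was 2.02 (SE 0.49, edgeR adjusted p = 0.0432), at 9 to 203 counts per library. Leaving out the 4 libraries of high ependymal score gave 1.62 (edgeR adjusted p = 0.102), leaving out the 3 of high olfactory bulb score gave 1.73 (edgeR adjusted p = 0.179), and leaving out both sets gave 0.41 (edgeR adjusted p = 0.688). Of the homozygotes, both sets together hold replicates 1, 2, 4, 5 and 8, and they hold no wild-type library. Only the 3 lower homozygous libraries remained, so the smaller estimate follows from that choice and tests nothing further. Among 32 alternatives the call held in 9. It was lost without any 1 of the 6 wild-type libraries, heterozygous replicates 1, 4, 5 and 6 or homozygous replicates 1, 2, 4, 5 and 8, with estimates of 1.77 to 2.18. Cdca7l overlaps it on the opposite strand, at 0.515 to 1.08 CPM, and did not pass the test (log2 change 0.32, edgeR adjusted p = 0.349).

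**Figure D3:**
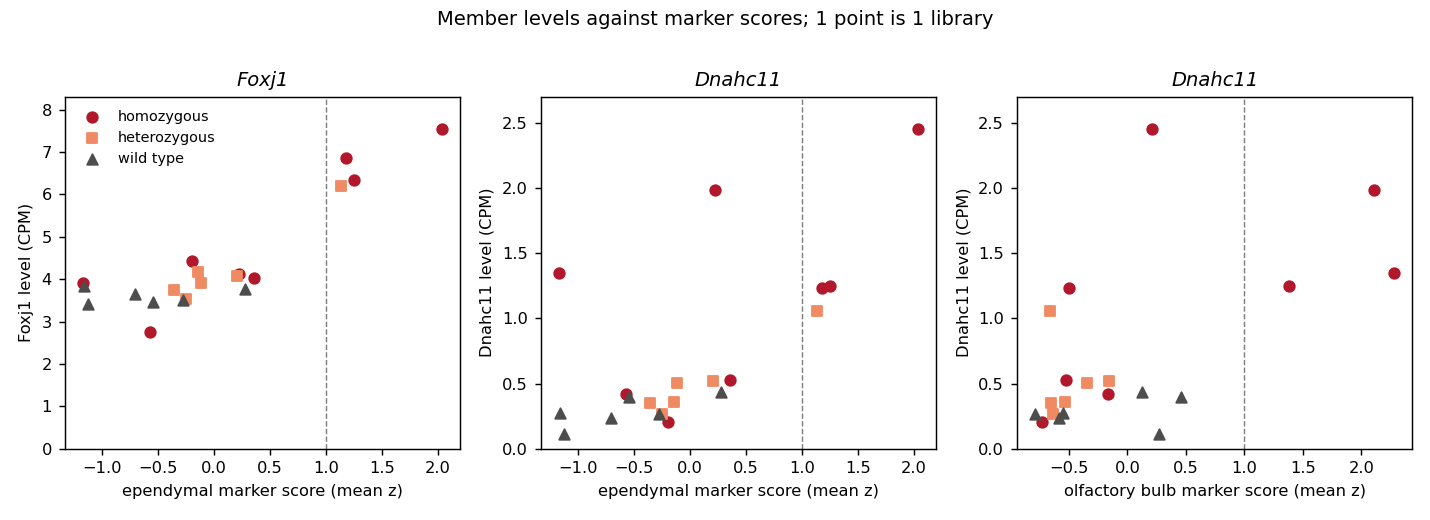
Levels (CPM) of Foxj1 and Dnahc11 in each of the 20 libraries against the ependymal or olfactory bulb marker score (mean z), with a dashed line at a score of 1. Foxj1 is at 6.20 CPM or more in the 4 libraries right of the line, and Dnahc11 is also high in homozygous replicates 5 and 8, which lie right of the olfactory line.

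Dnahc3 (chr7:119922717-120095177, minus strand), an inner arm chain, had the widest range of all members. Its lowest, median and highest levels were 0.0580, 0.512 and 1.83 CPM in homozygotes, 0.112, 0.319 and 1.42 CPM in heterozygotes and 0.0916, 0.118 and 0.211 CPM in wild type. The 4 libraries of high ependymal score held 1.09 to 1.83 CPM and the others at most 0.570 CPM. These levels rest on 5 to 151 counts per library. The log2 change was 2.42 (SE 0.66, edgeR adjusted p = 0.068) in homozygotes and 1.86 (SE 0.69, edgeR adjusted p = 1, unadjusted p = 0.015) in heterozygotes, each against wild type. The estimate for homozygotes was 1.33 with the 4 libraries left out (edgeR adjusted p = 0.112). Lyrm1 overlaps Dnahc3 on the opposite strand, at 6.32 to 8.58 CPM.

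Dnahc6, Dnahc10 and both Dnahc12 rows had the same 4 highest libraries. Dnahc6 ran from 2.30 to 3.83 CPM in those 4 and from 0.799 to 1.70 CPM in the other 16, and Dnahc10 from 2.42 to 3.65 CPM in those 4 and from 0.754 to 1.499 CPM in the rest. For the first Dnahc12 row, at chr14:26693274-26816334, the levels were 0.369 to 0.762 CPM in those 4 and 0.0580 to 0.323 CPM in the others. In homozygotes against wild type the log2 changes were 1.09 for Dnahc6 (edgeR adjusted p = 0.0716), 0.84 for Dnahc10 (edgeR adjusted p = 0.229) and 1.46 for that Dnahc12 row (edgeR adjusted p = 0.151). With the 4 libraries left out they were 0.49 for Dnahc6 (edgeR adjusted p = 0.128), 0.13 for Dnahc10 (edgeR adjusted p = 0.783) and 0.72 for that Dnahc12 row (edgeR adjusted p = 0.378). The second Dnahc12 row, at 1.04 with all libraries (edgeR adjusted p = 0.178), was at 0.29 without them (edgeR adjusted p = 0.693).

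Other heavy chains shared those libraries in part or not at all. Dnahc2, an inner arm chain, ran from 2.77 to 4.36 CPM in homozygotes, 2.25 to 3.63 CPM in heterozygotes and 2.48 to 2.91 CPM in wild type, with 3 of the 4 libraries among its 4 highest. Its log2 change in homozygotes against wild type was 0.40 (edgeR adjusted p = 0.0539). It was 0.29 with those 4 left out (edgeR adjusted p = 0.185), and it passed, at 0.40, with heterozygous replicate 1 left out for its striatal score (edgeR adjusted p = 0.0389). Dnahc5, at 6.84 ± 0.662 CPM (SD) in the 8 homozygotes, 6.15 ± 1.01 in the 6 heterozygotes and 6.02 ± 0.626 in the 6 wild-type mice, overlapped between genotypes. Dnahc9, at 4.35 to 6.70 CPM in homozygotes, 4.19 to 5.55 CPM in heterozygotes and 4.24 to 4.99 CPM in wild type, had 3 of the 4 libraries among its 4 highest. Dnahc7b, the steadiest heavy chain, ran from 3.02 to 4.57 CPM, with both extremes in wild type. Dnahc17 and Dnahc8, known from sperm flagella, had negative estimates of -0.23 (edgeR adjusted p = 0.728) and -0.18 (edgeR adjusted p = 0.745) in homozygotes against wild type. Pgs1 overlaps Dnahc17 and Glo1 overlaps Dnahc8 on the opposite strand. Dnahc7a, Dnahc7b and Dnahc7c are close copies, so reads could be split among them, and Dnahc7c did not pass the filter on low counts.

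The other dynein chains were Dnaic1 and Dnaic2, intermediate chains of the outer arm, and Dnali1, a light intermediate chain of inner arms. Dnali1 held 1.01 to 1.63 CPM in the 4 libraries of high ependymal score and 0.0802 to 0.507 CPM in the others. Its median was 0.412 CPM in homozygotes, 0.361 CPM in heterozygotes and 0.162 CPM in wild type, and its log2 change in homozygotes against wild type was 1.76 (SE 0.59, edgeR adjusted p = 0.141). With those 4 left out it was 0.49 (edgeR adjusted p = 0.555). Dnaic2 ran from 1.13 to 2.27 CPM in homozygotes, from 1.15 to 1.48 CPM in heterozygotes and from 0.884 to 1.78 CPM in wild type, and all 3 ranges overlapped (log2 change 0.49 in homozygotes against wild type, edgeR adjusted p = 0.121, and 0.22 with those 4 left out, edgeR adjusted p = 0.5). Dnaic1 averaged 3.53 ± 0.524 CPM (SD) in the 8 homozygotes, 3.55 ± 0.429 in the 6 heterozygotes and 3.31 ± 0.295 in the 6 wild-type mice. Enho overlaps Dnaic1 and Gnl2 overlaps Dnali1 on the opposite strand, at 28.8 to 37.1 CPM and 54.3 to 70.2 CPM.

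Among the radial spoke rows, only Rsph1 (chr17:31255019-31277356, minus strand), a protein of the spoke head, was called by edgeR over all 20 libraries. Its lowest, median and highest levels were 2.88, 3.41 and 4.79 CPM in homozygotes, 2.58, 3.09 and 3.56 CPM in heterozygotes and 2.44, 2.69 and 3.15 CPM in wild type. Its 4 highest libraries were those of high ependymal score, and homozygous replicate 7 lay within the wild-type range. The log2 change of homozygotes against wild type was 0.39 (SE 0.097, edgeR adjusted p = 0.0416). Leaving out those 4 libraries gave 0.25 (edgeR adjusted p = 0.137), leaving out the 3 of high olfactory bulb score gave 0.38 (edgeR adjusted p = 0.126), and leaving out both sets gave 0.21 (edgeR adjusted p = 0.436). The call held in 18 of 32 alternatives, and was lost without any of wild type replicates 1, 2, 3, 4 and 6 or homozygous replicates 1, 2, 4 and 5. The gene AC154652.1 lies on the opposite strand.

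Rsph4a, another spoke head protein, ran from 1.78 to 4.06 CPM in homozygotes, from 1.19 to 2.28 CPM in heterozygotes and from 1.23 to 2.17 CPM in wild type, and was highest in homozygous replicate 1. Its log2 change in homozygotes was 0.61 against wild type (edgeR adjusted p = 0.0875) and 0.49 against heterozygotes (edgeR adjusted p = 0.33). With the 4 libraries of high ependymal score left out, that against wild type was 0.34 (edgeR adjusted p = 0.291). Rsph9, also of the spoke head, differed less between libraries. It averaged 5.90 ± 0.445 CPM (SD) in the 8 homozygotes, 5.70 ± 0.474 in the 6 heterozygotes and 5.88 ± 0.533 in the 6 wild-type mice, with a log2 change of 0.005 in homozygotes against wild type (edgeR adjusted p = 0.981). Mrps18a overlaps Rsph9 on the opposite strand, and Rsph10b2 (7.67 to 10.6 CPM) overlaps Pms2 (18.2 to 23.4 CPM) on the same strand.

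Rsph3a and Rsph3b, close copies that encode a spoke stalk protein, varied by library in their own way. Rsph3b held 10.9 CPM in heterozygous replicate 5 and 9.96 and 9.68 CPM in homozygous replicates 6 and 7, while the other 17 libraries held 4.99 to 7.30 CPM. In those 3 libraries Rsph3b made up 50.5% to 53.7% of the pair's summed CPM, and in the others 28.4% to 39.0%. Rsph3a was highest in homozygous replicate 4, at 16.5 CPM, and held 8.83 to 13.1 CPM elsewhere. These libraries are not the ones of high Foxj1, except homozygous replicate 4 for Rsph3a. No genotype difference was called for either, and reads could be split between such copies. Rsph6a, known from sperm, had 1 to 19 counts per library.

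Tektins form filaments along the doublet microtubules. Tekt4 (chr17:25471590-25476594, plus strand) had lower levels in most homozygous libraries. Its lowest, median and highest levels were 0.0955, 0.169 and 0.302 CPM in homozygotes, 0.225, 0.291 and 1.07 CPM in heterozygotes and 0.233, 0.391 and 0.651 CPM in wild type. Homozygous replicate 1, the library of highest Foxj1, was the only homozygous library within the ranges of the other genotypes. The log2 change of homozygotes was -1.23 against wild type (SE 0.34, edgeR adjusted p = 0.0637) and -1.36 against heterozygotes (SE 0.34, edgeR adjusted p = 0.135), at 8 to 81 counts per library. DESeq2 called both (adjusted p = 0.0199 and 0.023), and edgeR called it against wild type when only the 2 genotypes were fitted (adjusted p = 0.0301), without homozygous replicate 1 (adjusted p = 0.0461) or without heterozygous replicate 6 (adjusted p = 0.0206). Leaving out the 4 libraries of high ependymal score gave -1.54 against wild type (edgeR adjusted p = 0.0574).

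The other tektins overlapped between genotypes. Tekt1 had 3 of the 4 libraries among its 4 highest and ran from 0.647 to 1.35 CPM in homozygotes, 0.632 to 1.03 CPM in heterozygotes and 0.514 to 0.969 CPM in wild type. Tekt2 averaged 1.22 ± 0.244 CPM (SD) in the 8 homozygotes, 1.24 ± 0.198 in the 6 heterozygotes and 1.16 ± 0.244 in the 6 wild-type mice. Tekt5, at 3.60 CPM per kilobase of exon the highest tektin, averaged 6.74 ± 0.462 CPM (SD) in the 8 homozygotes, 6.52 ± 0.412 in the 6 heterozygotes and 6.18 ± 0.725 in the 6 wild-type mice.

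**Figure D4:**
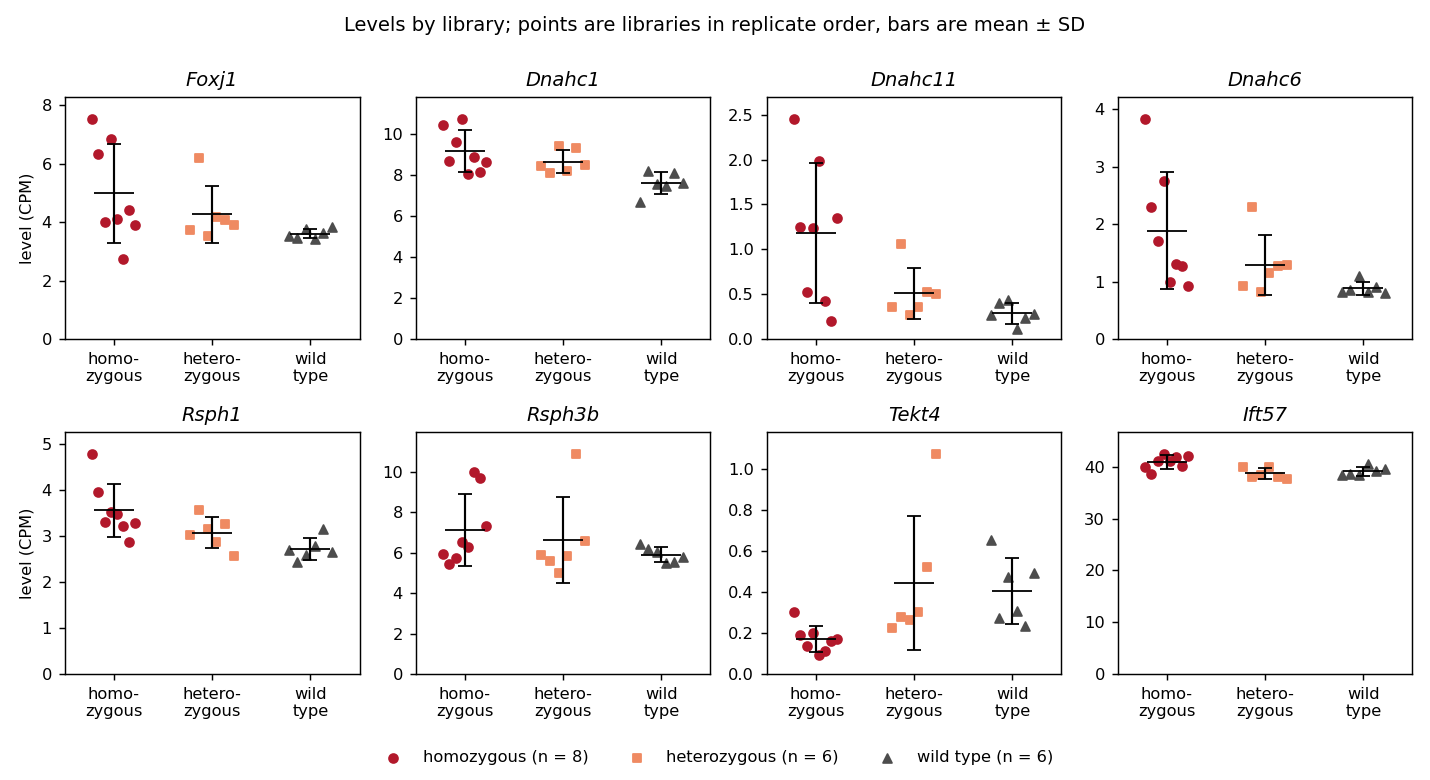
Levels (CPM) of 8 members in each library, with homozygous, heterozygous and wild-type libraries from left to right and bars for the mean ± SD. Foxj1, Dnahc11, Dnahc6 and Rsph1 are high in a few libraries, Rsph3b is at 9.68 CPM or more in 3 others, Tekt4 is low in homozygotes and Ift57 is near 40 CPM throughout.

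The intraflagellar transport genes were more abundant and varied least. Their summed level was 389 ± 7.01 CPM (SD) in the 8 homozygotes, 390 ± 5.12 in the 6 heterozygotes and 390 ± 5.10 in the 6 wild-type mice. Of the 12 members, 0 were called in any comparison by edgeR, DESeq2 or limma voom, and 2 had an unadjusted p under 0.05 in homozygotes against wild type. Per kilobase of exon the highest were Ift20, which also works at the Golgi, at 23.2 CPM per kilobase, Ift57 at 13.9 and Ift172 at 10.2. The median was 5.29 CPM per kilobase over the Ift members and 0.313 CPM per kilobase over the motile cilium members, with Foxj1 at 1.66.

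Ift57 (chr16:49699233-49765126, plus strand), of the complex that drives outward transport, had lowest, median and highest levels of 38.6, 41.1 and 42.4 CPM in homozygotes, 37.7, 38.2 and 40.0 CPM in heterozygotes and 38.3, 38.9 and 40.5 CPM in wild type. The groups overlapped, and log2 changes of homozygotes were 0.08 against heterozygotes (SE 0.028, edgeR adjusted p = 0.31) and 0.06 against wild type (SE 0.028, edgeR adjusted p = 0.243). Ift172, of the same complex, averaged 65.2 ± 3.66 CPM (SD) in the 8 homozygotes, 68.3 ± 1.88 in the 6 heterozygotes and 68.9 ± 2.34 in the 6 wild-type mice, a log2 change of -0.08 in homozygotes against wild type (edgeR adjusted p = 0.242). Ift27, a small GTPase of that complex, ran from 13.1 to 14.2 CPM in homozygotes, below the 14.4 to 15.4 CPM of heterozygotes, while 13.0 to 16.1 CPM in wild type spanned both. It was the 1 member with no overlap in homozygotes against heterozygotes, where 0.198% of all genes had every homozygous library lower, and its log2 change was -0.12 (edgeR adjusted p = 0.335). Ift122 and Ift140, of the complex for return transport, had log2 changes of 0.04 (edgeR adjusted p = 0.689) and 0.02 (edgeR adjusted p = 0.846) in homozygotes against wild type.

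The spread between libraries differed between the classes. The ratio of the highest to the lowest library had a median of 2.63 over the motile cilium members, with Rsph9 at 1.30 and Dnahc3 at 31.5 as the extremes, and of 1.19 over the Ift members, with Ift57 at 1.12 and Ift74 at 1.25. Over all genes tested the median was 1.32. Level and counting error move with this ratio, and their part was not tested. The 13 motile cilium members under 1 CPM had a median of 12.4 and the 7 at 5 CPM or more a median of 1.61, from 1.30 to 2.18, all above the 12 Ift members. No level was shared, since mean levels were 14.3 to 67.2 CPM for Ift members and at most 10.8 CPM for motile cilium members. For 3 members (Dnahc7c, Dnahc14 and Rsph6a) the lowest library held 3 counts or fewer. Homozygous replicate 1 was the highest library for 15 of 31 motile cilium members and for 1 of 12 Ift members. The 4 libraries of high ependymal score were the 4 highest for 8 of 31 motile cilium members and for 0 of 12 Ift members.

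**Figure D5:**
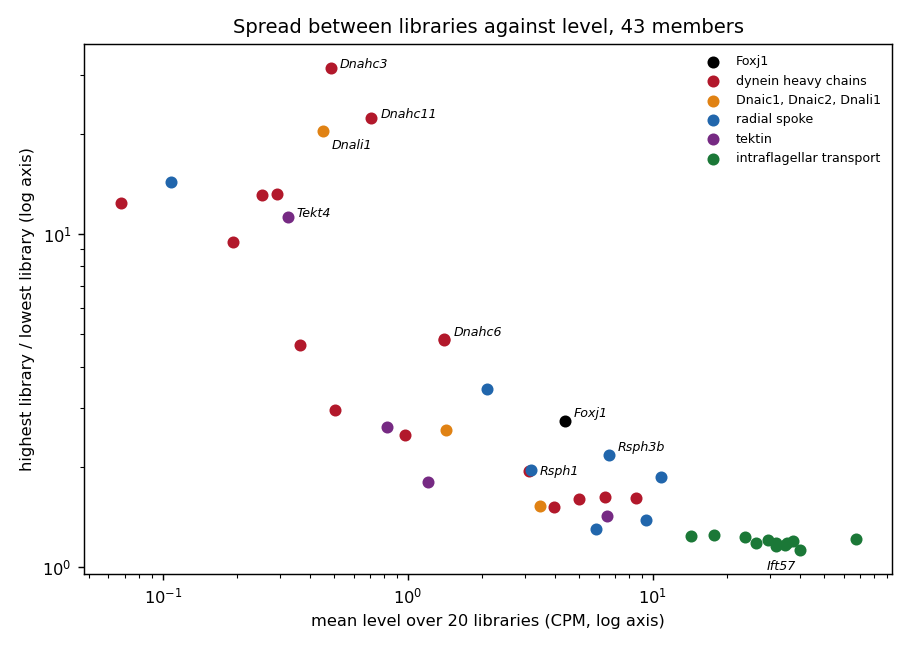
Ratio of the highest to the lowest library against mean level (CPM) for the 43 members, both on log axes and coloured by class. Ift members form a band between 1.12 and 1.25, and motile cilium members reach 31.5 at Dnahc3.

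Members were also compared with Foxj1 across libraries, within the 16 libraries of 2.75 to 4.42 CPM, since the other 4 form a separate cluster. Of 42 members, 0 passed adjustment by Pearson's r in two-sided permutation tests, with a median r of 0.09 over 30 motile cilium members. The 4 libraries left out were the 4 highest for 8 of 31 motile cilium members. Leaving them out narrows the range of Foxj1, so these tests do not describe variation with Foxj1 over all 20 libraries. Ift88 had the smallest adjusted p, with r = -0.74 (permutation p = 0.00171, adjusted p = 0.0718) and rho = -0.77 (permutation p = 0.00075, adjusted p = 0.0315). Without homozygous replicates 6 and 7, the libraries farthest from the median of Foxj1, its r was -0.73 (permutation, adjusted p = 0.0609) and its rho, also -0.77, no longer passed (permutation, adjusted p = 0.0511). In that setting the median r over the motile cilium members was 0.38, with 0 members passing adjustment by either measure.

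Other genes of the pathway were read from lists. Of 63 other motile axoneme genes tested, 3 were raised and 1 was lowered in homozygotes against wild type, 51 had positive estimates, and the median log2 change was 0.14. Over all genes tested, edgeR raised 0.641% and lowered 0.923%, and 50.6% had positive estimates. Raised were Armc4, a docking factor of outer arms (log2 change 0.62, edgeR adjusted p = 0.028), Wdr78, an inner arm chain (0.28, edgeR adjusted p = 0.0305), and Iqcg, of the nexin-dynein regulatory complex (0.41, edgeR adjusted p = 0.0432). The summed level of this list was highest in homozygous replicate 1, the library of highest ependymal score. Estimates without the libraries of high score are not given for these genes. Spag1, which helps to assemble dynein arms in the cytoplasm, was lowered (-0.24, edgeR adjusted p = 0.0135). Of 10 multiciliation regulators tested, 0 were called by edgeR, 8 had positive estimates, and Rfx3, a factor that binds X-boxes, had a log2 change of 0.04 (edgeR adjusted p = 0.679). Of 20 other intraflagellar transport genes and 40 primary cilium genes, 0 were called by edgeR, with medians of 0.02 and -0.01. Kif3a, a subunit of the motor for outward transport, had a log2 change of 0.04 (edgeR adjusted p = 0.725), and Arl3, a small GTPase of cilia, -0.01 (edgeR adjusted p = 0.832).

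Marker lists of neighbouring tissue are given beside these results, and their part in the members' changes was not tested beyond the fits without libraries. The median log2 change of homozygotes against wild type was 0.49 over 8 ependymal markers, 0.46 over 9 choroid plexus markers, 0.30 over 10 subventricular neuroblast markers, 1.41 over 7 olfactory bulb markers, 0.32 over 9 meningeal markers and 0.09 over 9 striatal markers. It was -0.02 over 10 cortical excitatory neuron markers. In these lists 1 gene was called, the neuroblast marker Sox4 (log2 change 0.35, edgeR adjusted p = 0.00327), where edgeR called 1.56% of all genes tested.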

How the data were processed

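The authors deposited a table of raw counts for each gene, and polyadenylated RNA was sequenced with a stranded kit, per the labels' protocols. Trim Galore 0.4.3, HISAT2 2.0.5 and GRCm38 were used, per the submitters' processing notes. No source used here gives the program, gene models or strand option of the counting, so reads of overlapping genes cannot be told apart. All 20 libraries entered 1 fit by genotype in edgeR 4.0.16 (R 4.3.3), with TMM, filterByExpr and the robust quasi-likelihood test. The filter passed 16690 genes, over which p-values were adjusted by Benjamini-Hochberg, with calls under 0.05. The fit was tested on simulated counts. CPM use TMM-scaled library sizes. Exon lengths and overlaps came from GENCODE M21, matched by identifier for 40 of the 43 rows, and coordinates of genes are those of the deposited table. Foxj1 was tested by exact permutation (scipy 1.17.1), and correlations with 100000 resamples on log2(CPM + 0.05). Each marker score averages z scores over its list, from log2 CPM with a prior count of 2. Library pairs within genotypes (58) had chi-square values of at least 13.0 per degree of freedom, so none was taken as a duplicate.

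The members and lists were chosen with earlier results of these data known. Named members were Foxj1, those called, those of smallest p, the highest per kilobase, the widest and narrowest of each class and those at the count threshold, with up to 4 genes per other list, called ones and then the most abundant. Dnahc2, Dnahc6, Dnahc7a, Dnahc8, Dnahc10, Dnahc17, the second Dnahc12 row, Rsph3b, Ift27, Ift81, Ift88, Ift122 and Ift140 were added after their values were seen. The alternatives included DESeq2 1.42.0, edgeR with size factors of DESeq2, limma 3.58.1 voom with quality weights, no filter, 1 CPM in 6 libraries, 3 surrogate variables (sva 3.50.0), the replicate number as a block, only the 2 genotypes compared and each library left out in turn. Fits without libraries by marker score were chosen after seeing the data. The fit without the library of high striatal score is the same as that without heterozygous replicate 1. The counts of alternatives include it under both names.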

Additional observations from a re-analysis of the deposited data

Results flagged for a closer look

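Of 129 groups (43 members in 3 genotypes), 19 held a library that lay far from the rest of its genotype, and chance flags about 1 in 20 groups. Heterozygous replicate 2 stood above the other heterozygotes for Foxj1 at 6.20 CPM, Dnahc11 at 1.05 CPM, Dnahc3 at 1.42 CPM and Dnahc6 at 2.30 CPM, and its ependymal score was 1.14. Homozygous replicate 1 did so for Dnahc7a at 1.60 CPM, and homozygous replicate 4 for Rsph3a at 16.5 CPM. Among other heterozygotes the high libraries were replicate 5 for Rsph3b at 10.9 CPM and replicate 6 for Rsph3a at 10.5 CPM and Tekt4 at 1.07 CPM, the last from 81 counts. The low ones were replicate 4 for Ift140 at 33.7 CPM and replicate 5 for Ift88 at 21.02 CPM.

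Wild type replicate 3 was high for Dnahc6 at 1.098 CPM, Dnaic2 at 1.78 CPM and Dnali1 at 0.327 CPM, the last from 31 counts. Wild type replicate 6 was high for Ift140 at 39.7 CPM and Tekt2 at 1.63 CPM and low for Ift74 at 16.3 CPM. Wild type replicate 4 was high for Ift80 at 32.4 CPM, and wild type replicate 1 was low for Dnaic1 at 2.76 CPM.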

How the results depend on the processing

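The 3 calls in homozygotes against wild type depended on the fit. With only the 2 genotypes compared, none of Dnahc1, Dnahc11 and Rsph1 was called. The 1 member called there was Tekt4, which was lowered (log2 change -1.23, edgeR adjusted p = 0.0301). Tekt4 was also lowered among the members called by DESeq2. The counts that follow take raised and lowered members together. The number of members called was 9 with DESeq2 (2.97% of all genes called), 1 with limma voom (1.71%), 1 with only the 2 genotypes compared (1.17%), 0 with 3 surrogate variables (0.611%), 0 without the 4 libraries of high ependymal score (1.52%), 1 without the 3 of high olfactory bulb score (0.473%), 0 without either (0.309%), and 0 to 5 as each library was left out (0 without wild type replicates 1, 4 or 6 or homozygous replicate 4, and 5 without homozygous replicate 7). In homozygotes against heterozygotes it was 1 with DESeq2 (Tekt4) and 0 in the other fits. Differences in mean log2 CPM of Foxj1 ran from 0.30 to 0.51 as each library was left out for homozygotes against wild type, passing at 0.51 without homozygous replicate 6 (exact permutation, adjusted p = 0.0035), and from 0.10 to 0.27 for heterozygotes against wild type, passing at 0.27 without heterozygous replicate 3 (exact permutation, adjusted p = 0.039). The number of Ift members related to Foxj1 by Pearson's r was 2 as deviations from genotype means (Ift88 and Ift81), where by Spearman's rho it was 0 and Ift88 no longer passed (permutation, adjusted p = 0.166). The causes were not tested.

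With the replicate number as a block, 7 members were called, Dnahc1, Dnahc11, Dnahc2, Dnahc3, Dnaic2, Rsph1 and the first Dnahc12 row, and calls over all genes were 164 raised and 223 lowered (2.32%), against 107 and 154 (1.56%) without it. Of 18 same-number pairs of libraries, 1 had a correlation of deviations over 0.1 (median 0.04), as had 7 of 114 different-number pairs (median -0.006). The numbers were not read as a pairing, and whether libraries of the same number share a batch was not tested. Members under 1 CPM rest on few counts, and the others are limited by the number of libraries.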
